A study of Mus musculus with 6 samples.

Results

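Genes that encode potassium channels and their subunits were measured in the mouse renal cortex by micro-array. They were taken by symbol, as Kcn followed by family letters and a number, with Kcnj1 left out, which gave 91 genes and 169 probes among the 37074 gene names on the array. Each of the 6 arrays held renal cortex RNA of male mice aged 16 weeks, 3 of them labelled db/m and 3 labelled db/db. Db/db mice (C57BLKS/J) carry a defective leptin receptor gene in every cell and become obese and diabetic, and db/m mice are their non-diabetic counterparts. The micro-array was run to find genes that respond to Huangqi decoction (HQD), a mixture of medicinal herbs given by mouth for 8 weeks. The sources disagree about the groups, because the array labels give the genotypes db/m and db/db, whereas the methods and the deposited design describe db/db mice with and without HQD, 3 of each. The arrays labelled db/m may therefore be from db/m mice or from HQD-treated db/db mice, the dose is not named for them, and groups and arrays are called by their labels here (db/m replicate 2 is the array so labelled). A positive difference means a higher value in labelled db/m.

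Potassium channels let potassium leave or enter cells along its gradient and so set the membrane voltage. In the kidney tubule, channels on the blood side recycle the potassium that the sodium-potassium pump brings in, and channels on the urine side secrete potassium or hold the voltage that drives sodium-coupled uptake. Channel families differ in what opens them: voltage (Kcna to Kcnd, Kcnh and Kcnq, with silent partners in Kcnf, Kcng, Kcns and Kcnv), inward rectification (Kcnj), resting leak through two-pore subunits (Kcnk), or intracellular calcium and sodium (Kcnma, Kcnn and Kcnt). Kcnab, Kcne and Kcnip genes encode partner proteins of voltage-gated channels.

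The probes behind the results below are 60 bases long, and the first 30 bases of each are shown because more than 1 probe stands for Kcnn1 and Kcnip3 and the probes of a gene gave different sizes. They are written 5′ to 3′ from the deposited scanner files, with the mm9 coordinates that the file gives for the whole probe. Coding or untranslated position was not analysed here.
Kcna6 (chr6:126658424-126658483, minus strand): gagagttgctggtctgatcaaaggagagga
Kcnh3 (chr15:99073169-99073227, plus strand, an interval 1 base shorter than the probe): tgccattccttgcatgtgcccgtctccact
Kcnq5 (chr1:21567995-21568054, minus strand): ggaccagaaaagaaatttccccctgacaca
Kcne1 (chr16:92348745-92348804, minus strand): acactctacaggtgacaagcggatctttct
Kcnip3, probe 1 (chr2:127282242-127282301, minus strand): tggttcctgtctcagcgcccaccaatattc
Kcnip3, probe 2 (chr2:127307742-127307801, minus strand): gtgctgctgttcattgccgtcctcaagcag
Kcnj15 (chr16:95518430-95518489, plus strand): acagacgttcgtggccatcttcccctttgt
Kcnj13 (chr1:89282991-89283050, minus strand): catatcaatggacaaagcattgacaatttc
Kcnj4 (chr15:79314133-79314157, minus strand, an interval shorter than the probe in the file): gcatgactgtggtctgtgctcttgattctc
Kcnk16 (chr14:21081978-21082037, minus strand): aaggatggagcagcccctgactctgagcct
Kcnn1, probe 1 (chr8:73367057-73367116, minus strand): aatgtatacacagtaagacgtggggtggca
Kcnn1, probe 2 (chr8:73376967-73378580, minus strand, an interval longer than the probe): gtccactgtcatcttgcttggccttgtcat
Kcnn1, probe 3 (chr8:73367405-73367464, minus strand): cctgtgtgggaacccagaggcccagtttgg
Tested probes of 1 gene are numbered from the brightest down. Probes 1 and 3 of Kcnn1 lie near each other, and probe 2 lies upstream of both on the minus strand. Both Kcnip3 probes shown here are assigned to 1 transcript in the file, where probe 2 starts at base 434 and probe 1 at base 2860.

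The arrays differed in median intensity before scaling. It was 136, 101 and 132 on db/m replicates 1 to 3 and 111, 93.6 and 119 on db/db replicates 1 to 3. Between 54.0 and 59.0% of non-control probes were well above background on the arrays labelled db/m and between 51.6 and 57.4% on those labelled db/db. Markers of proximal tubule, thick limb, distal convoluted tubule and podocytes were well above background on all 6 arrays for every gene listed, which covers tubule as well as the glomeruli that 1 protocol text names. The arrays lay on 3 slides, and only slide 1 held both groups, as db/m replicate 1 with db/db replicate 3. The methods name 3 mice a group for the db/db mice with and without HQD, while the labels number replicates without naming animals. Because whole tissue was measured, fewer cells of a type and less RNA per cell cannot be told apart.

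Signals in the renal cortex were strong enough for a test in 47 of the potassium channel genes. A probe was tested where the scanner flagged it as well above background on each of the 3 arrays of at least 1 group, which held for 47 of 91 genes and for 58 of the 168 member probes without an outlier flag (34.5%, against 52.9% of all 56470 probes). Of the tested genes, 39 had a probe well above background on all 6 arrays. In 31 genes no probe was well above background on any array, and 12 more reached that mark on 1 to 5 arrays without meeting the rule. The last untested gene, Kcnk2, a mechanically gated leak channel, had its only probe left out for an outlier flag.

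The families differed in how many members were seen. All 4 calcium-activated Kcnn genes were tested, as were 9 of 14 Kcnj genes, 5 of 8 Kcnh genes and 3 of 5 Kcnq genes. In contrast, 2 of 8 Kcna genes were tested and 6 were well above background on no array, among them Kcna5 and Kcna10, and 6 of 14 Kcnk genes were tested. Several channels with a known kidney role did not meet the rule. Kcnj11, the pore of an ATP-sensitive channel, was well above background on 1 array, Kcne2 on 2 arrays and Kcnmb1, the smooth muscle partner of the large-conductance calcium-activated channel, on 1 array. Kcnmb4 was well above background on none. No member was called on every array of 1 group and on none of the other.

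**Figure D1:**
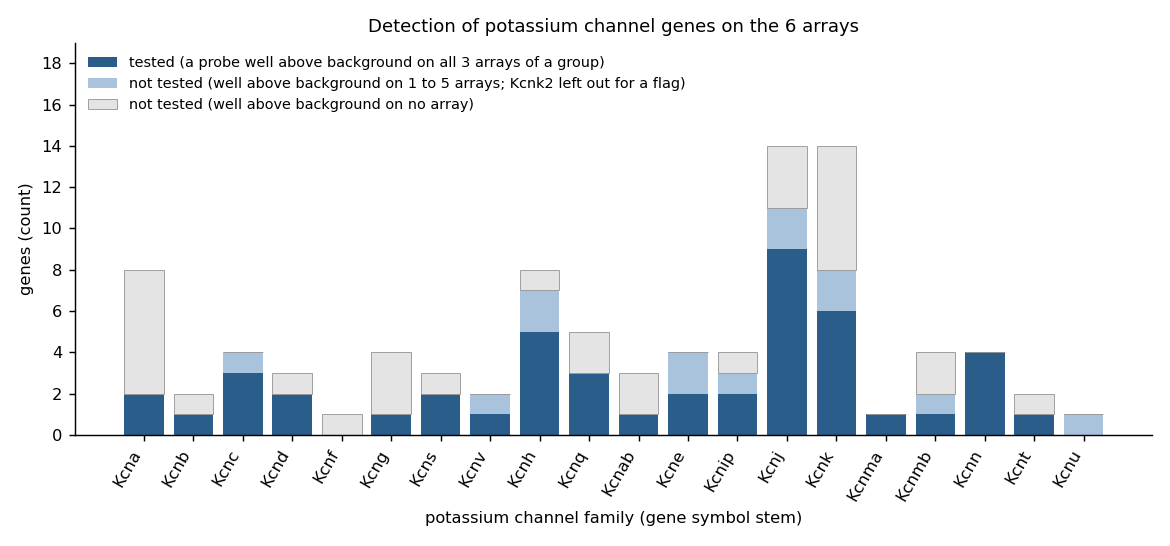
Number of potassium channel genes per family (vertical axis, count) by whether the gene was tested, was well above background on some arrays, or on none. All 4 Kcnn genes were tested, whereas 6 of 8 Kcna genes were well above background on no array.

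The log2 signal of a probe is the log2 of the scanner's processed intensity minus the 75th percentile of that array. On this scale 10 of the 58 tested member probes (17.2%), of 8 genes, were higher in labelled db/m at an unadjusted p under 0.05 in limma, where 6.9% of all 29889 tested probes were. Lower in labelled db/m were 2 member probes (3.45%), of Kcne1 and Kcnj15, where 10.8% of all tested probes were. No member reached an adjusted p under 0.05 (0% of all tested probes did), the lowest adjusted p of a member being 0.240. By the study's screen, a fold of 2 or more with an unadjusted p under 0.05, 2 members were higher (0.783% of all) and 0 were lower (0.177% of all). The 3 arrays of each group did not overlap for 7 member probes that were higher (7.75% of all) and for 2 that were lower (16.4% of all). The equal-variance test that the methods imply for a pair of groups called 4 members higher (4.28% of all) and 0 lower (11.2% of all) at an unadjusted p under 0.05, and 0 after adjustment. With 3 arrays a group, the smallest two-sided p that exact permutation allows is 0.1.

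The tested members had a median difference of 0.13 (log2), against -0.03 for all tested probes. Some of these counts follow from the filter, since 8 member probes were tested through the labelled db/m arrays alone and 2 through the labelled db/db arrays alone. Among the 48 member probes well above background on all 6 arrays, 6 were higher (5.5% of all such probes) and 2 lower (11.2%), with a median of 0.12 against -0.04 for all such probes. The direction of the median was not stable. Centring each array on its median in place of the 75th percentile moved the difference of every probe by -0.19. The member median became -0.06, and its gap of 0.16 to all probes could not change under such a shift. With slide as a block, a value that rests on the 2 arrays of slide 1, the member median was -0.09 and lay 0.05 below that of all probes. Median centring gave 4 members higher (3.02% of all tested probes) and 5 lower (19.3% of all). Slide as a block gave 4 higher (4.55% of all) and 8 lower (5.16% of all).

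Dim probes leaned towards labelled db/m over the whole array, and the potassium channel probes were dim. Their median log2 signal was -1.48, against -0.24 for all tested probes. When all tested probes were split into 4 equal bins by signal, in the dimmest bin the median difference was 0.16 and 14.2% were higher at an unadjusted p under 0.05, whereas in the brightest bin the median was -0.14 and 1.85% were higher. Of the 10 higher member probes, 4 lay in the dimmest bin, 5 in the next and 1 in the brightest, while the 2 lower probes lay in the 2 brighter bins. The dimmest bin held 20 member probes with a median difference of 0.13, below the 0.16 of all probes in that bin. The second dimmest bin held 20 member probes with a median difference of 0.32, against 0.04 and 7.63% higher for all probes in that bin. In the 2 brighter bins the member medians were 0.02 and 0.06, against -0.06 and -0.14 for all probes. The part of signal level in the counts was not tested. The GC content of the higher member probes had a median of 46.7%, near the 45.0% of all tested members and the 43.3% of all tested probes.

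**Figure D2:**
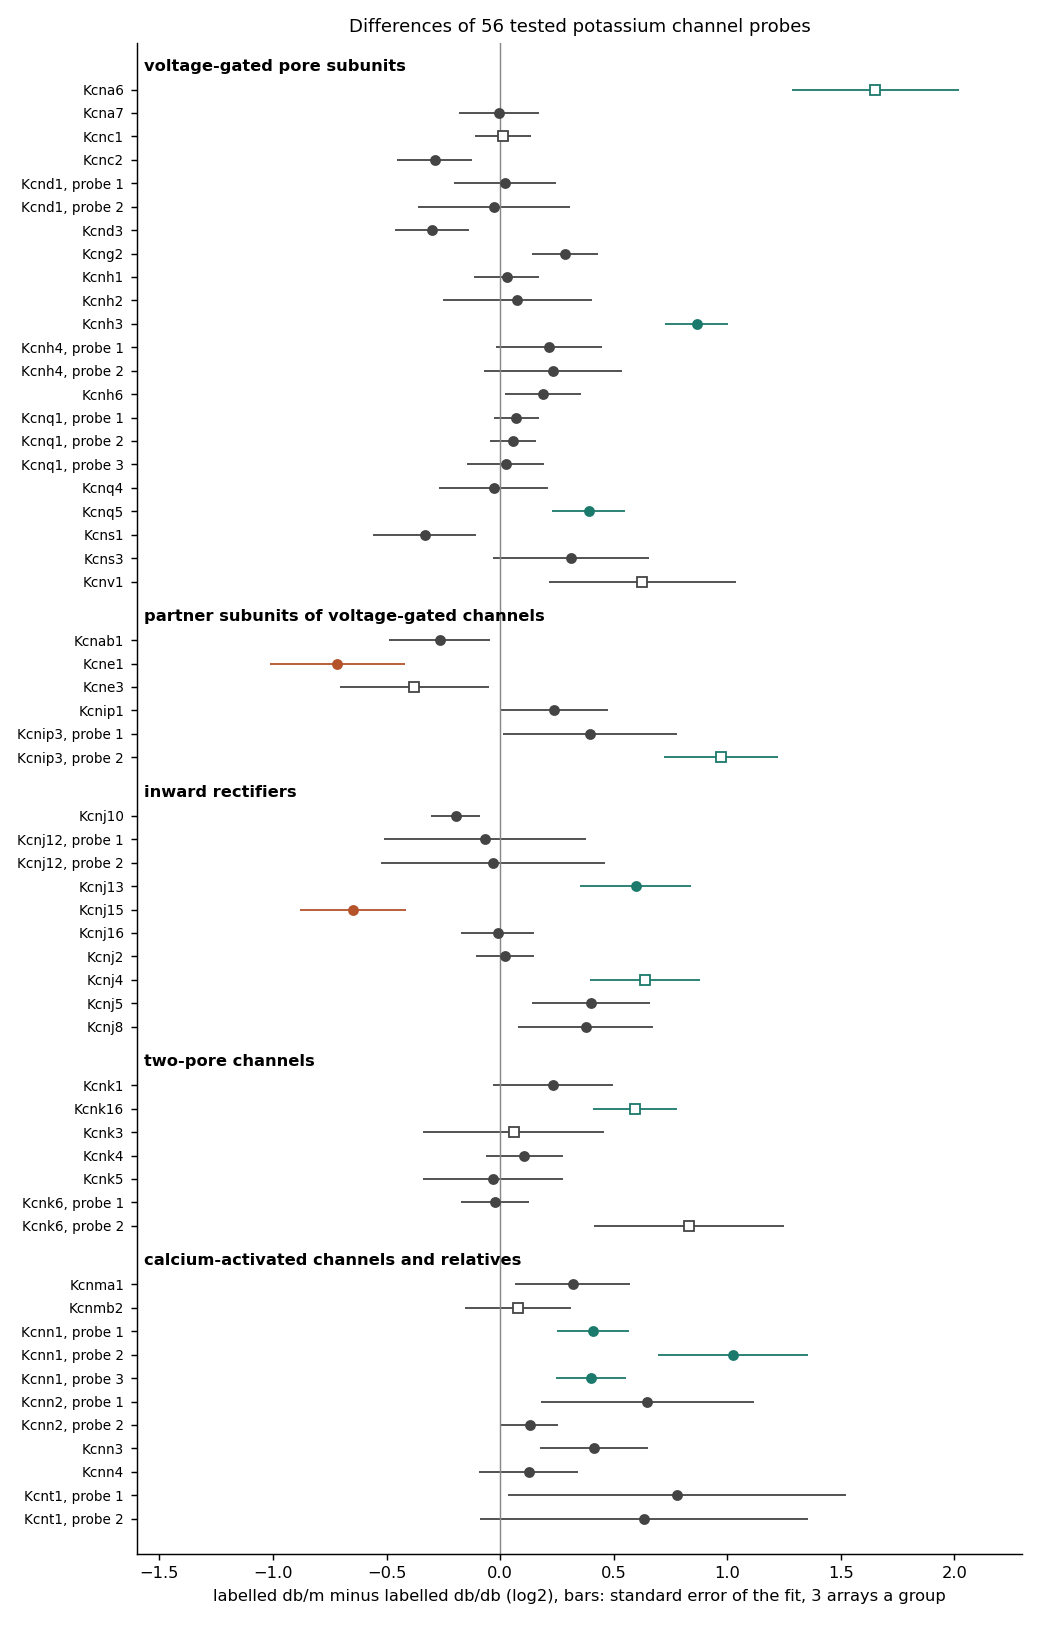
Difference (labelled db/m minus labelled db/db, log2, horizontal axis) with its standard error for 56 of the 58 tested probes by channel class, filled circles where all 6 arrays were well above background and open squares otherwise. Green marks the 10 probes that were higher and orange the 2 that were lower at an unadjusted p under 0.05, with Kcna6 at 1.65 and Kcne1 at -0.72 at the ends.

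Among the voltage-gated pore subunits, 40 genes in all, 20 were tested. Of these, 3 were higher in labelled db/m at an unadjusted p under 0.05 (6.9% of all tested probes), with none lower (10.8% of all). The 24 tested probes ranged from -0.33 to 1.65, with a median of 0.07. Kcna6, a delayed rectifier best known from neurons, read -1.50, -2.66 and -1.26 on db/m replicates 1 to 3 and -3.34, -3.77 and -3.27 on db/db replicates 1 to 3. The groups did not overlap, and db/db replicate 2 was not well above background. This probe was among the 8 tested through labelled db/m alone, the group in which it was higher. Kcna6 was 3.14-fold higher there, a log2 difference of 1.65 ± 0.37 (SE, n = 3 per group), with an unadjusted p of 0.00307 in limma. The other Kcna6 probe, assigned to the same transcript, was well above background on 0 of 6 arrays and was not tested. Its mean log2 signal was -6.21. Kcnh3, a voltage-gated channel of the ether-a-go-go type known from the forebrain, read -0.81, -0.88 and -0.66 in labelled db/m and -1.45, -1.86 and -1.64 in labelled db/db. Its arrays also stood apart, by 0.87 ± 0.14 (1.82-fold, unadjusted p = 0.000515 in limma), and it had the lowest p of any member. Kcna6 and Kcnh3 stayed at an unadjusted p under 0.05 in each of the 16 and 17 alternatives that gave them a value, with highest p of 0.0461 and 0.0287, both with slide as a block. With normexp background correction the difference of Kcna6 was 1.002. Kcna6 was not in the fit limited to probes well above background on all 6 arrays.

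Kcnq5, which encodes a subunit of slowly activating channels in neurons and smooth muscle, read 2.81, 2.62 and 2.65 in labelled db/m and 2.32, 2.02 and 2.57 in labelled db/db. The groups did not overlap, although db/db replicate 3 lay close to db/m replicate 2, and the difference was 0.39 ± 0.16 (1.31-fold, unadjusted p = 0.0475 in limma). Its p was 0.127 without db/m replicate 1, 0.0628 without replicate 2 and 0.0871 without replicate 3, and 0.0929 without db/db replicate 1 and 0.138 without replicate 2. The difference of Kcnq5 was 0.20 with median centring (unadjusted p = 0.291 in limma) and 0.24 with slide as a block (unadjusted p = 0.333 in limma). These Kcnq5 values come from 1 probe that was not matched to RefSeq. The other Kcnq5 probes were not tested, with mean log2 signals of -6.24, -6.19, -6.23 and -5.11. They were well above background on 0, 0, 0 and 1 arrays. Kcnq1, which forms a channel with Kcne1 at the urine side of the proximal tubule, had 3 tested probes. Its brightest probe read 2.68, 2.59 and 2.61 against 2.57, 2.49 and 2.60, a difference of 0.07 ± 0.10, and its other probes gave 0.06 and 0.02. None of the 3 Kcnq1 probes passed, the lowest unadjusted p being 0.502 in limma.

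None of the other voltage-gated genes named here passed an unadjusted p under 0.05 in limma as reported. Kcnd1 and Kcnd3, which carry transient currents, differed by 0.02 ± 0.22 and -0.30 ± 0.16. Kcnh1 gave 0.03 ± 0.14 and Kcnh2, the gene of the cardiac rapid delayed rectifier, 0.08 ± 0.33. Kcnh4, whose 2 tested probes gave 0.21 and 0.23, had its highest value on db/db replicate 3 and a difference of 0.46 without that array (unadjusted p = 0.0326 in limma). Kcnc2, a rapidly gated channel, was at -0.29 ± 0.17. It passed under 4 alternatives, with -0.47 under median centring (unadjusted p = 0.0371 in limma). Kcnd3, and Kcng2 and Kcns1 below, passed under 2 each. Kcna7 was at -0.01 ± 0.18. Of the silent subunits, Kcng2 was at 0.29 ± 0.15, Kcns1 at -0.33 ± 0.23, Kcns3 at 0.31 ± 0.34 and Kcnv1 at 0.63 ± 0.41. Kcnv1 was well above background on 1 of 3 labelled db/db arrays, and was at -0.80 with slide as a block (unadjusted p = 0.0239 in limma).

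Of the 11 genes for partner proteins of voltage-gated channels, 5 were tested, with 1 higher (6.9% of all tested probes) and 1 lower (10.8% of all). Kcne1, the small membrane protein that slows Kcnq1 channels, read -0.40, 0.84 and 0.06 in labelled db/m and 0.82, 0.998 and 0.83 in labelled db/db. Db/m replicate 2 lay among the labelled db/db arrays, so the groups overlapped, and the difference was -0.72 ± 0.30 (1.64-fold lower in labelled db/m, unadjusted p = 0.0478 in limma). The p was above 0.05 when any array but db/m replicate 2 was left out, at 0.123 without db/m replicate 1, 0.113 without replicate 3, and 0.084, 0.121 and 0.0853 without db/db replicates 1, 2 and 3. Without db/m replicate 1 the difference was -0.43, and with slide as a block it was -1.23. Kcne3 was at -0.38 ± 0.33 and was not well above background on 1 labelled db/m array.

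The 2 tested probes of Kcnip3, a calcium-binding protein that modulates transient potassium channels and also binds DNA, gave different sizes. Probe 2 read -3.88, -3.55 and -3.13 in labelled db/m and -4.66, -4.74 and -4.08 in labelled db/db, where replicates 1 and 2 were not well above background, so it was tested through labelled db/m alone. These groups did not overlap, with a difference of 0.97 ± 0.25 (unadjusted p = 0.00655 in limma), which dropped to 0.39 (unadjusted p = 0.0998 in limma) when dim arrays were set to the lowest signal called well above background. It was 0.19 with slide as a block (unadjusted p = 0.491 in limma) and 0.36 with normexp (unadjusted p = 0.0259 in limma). The brighter probe 1 read 0.76, -0.62 and 0.78 against 0.15, -0.12 and -0.30, with overlap and a difference of 0.39 ± 0.38 (unadjusted p = 0.339 in limma). Without db/m replicate 2, probe 1 gave 0.86 (unadjusted p = 0.00201 in limma). A further Kcnip3 probe was well above background on 2 labelled db/m arrays and 0 labelled db/db arrays and was not tested. Its mean log2 signal was -4.69. Kcnip1 was at 0.24 ± 0.24 and Kcnab1, a beta subunit of Kcna channels, at -0.27 ± 0.22.

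Inward rectifiers were called in both directions, as probes were over the whole array. Of 14 Kcnj genes, 9 were tested, with 2 higher (6.9% of all tested probes) and 1 lower (10.8% of all). The median was 0.00 over 10 probes. Kcnj15, an inward rectifier of the proximal tubule, read 2.86, 3.77 and 3.27 in labelled db/m and 3.96, 4.08 and 3.80 in labelled db/db. The groups did not overlap, though db/m replicate 2 lay close to db/db replicate 3. The difference was -0.65 ± 0.23 (1.57-fold lower in labelled db/m, unadjusted p = 0.0278 in limma). Its p was 0.0656 without db/m replicate 1, 0.0666 without replicate 3, 0.0653 without db/db replicate 1 and 0.0838 without replicate 2, and the size without db/m replicate 1 was -0.43.

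Kcne1 and Kcnj15 were lower in labelled db/m, as were the proximal tubule markers. The list of 8 markers was complete and well above background on all 6 arrays, and its summed signal was 671, 1115 and 852 in labelled db/m and 1031, 1169 and 1083 in labelled db/db, in multiples of the 75th percentile of the array. Db/m replicate 1 was the lowest for the list, for Kcne1 and for Kcnj15. It was also the lowest array for the distal convoluted tubule, intercalated cell, podocyte and smooth muscle lists. All 8 proximal tubule markers were below 0, with a median of -0.36, and 1 was lower at an unadjusted p under 0.05 (10.8% of all tested probes were). These markers were bright, and the brightest signal bin of all tested probes had a median of -0.14. Kcnq1 and Kcnk5, also channels of the proximal tubule, were at 0.07 and -0.03. The part of the proximal tubule share in Kcne1 and Kcnj15 was not tested.

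Kcnj16 and Kcnj10, which pair to form the basolateral channel of the distal tubule, did not pass. Kcnj16 read 5.94, 6.43 and 6.28 against 6.12, 6.15 and 6.41, a difference of -0.01 ± 0.16 (unadjusted p = 0.948 in limma). Kcnj10 read 3.58, 3.56 and 3.40 against 3.79, 3.69 and 3.64. The Kcnj10 arrays did not overlap, being lower in labelled db/m, but its difference of -0.20 ± 0.11 had an unadjusted p of 0.117 in limma. The SE of Kcnj16 was below the median SE of the members, 0.23.

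Kcnj13, a rectifier of fluid-transporting epithelia, and Kcnj4, known from heart and brain, were the 2 higher Kcnj genes. Kcnj13 read -0.96, -1.78 and -0.88 in labelled db/m and -1.68, -1.87 and -1.87 in labelled db/db. Db/m replicate 2 lay within the labelled db/db range, and the difference was 0.60 ± 0.24 (unadjusted p = 0.0460 in limma). Its p was 0.130 and 0.144 without db/m replicates 1 and 3, and 0.0647, 0.112 and 0.105 without db/db replicates 1, 2 and 3. With slide as a block it differed by 0.91 (unadjusted p = 0.0954 in limma). Kcnj4 read -2.80, -2.93 and -3.60 against -4.03, -3.52 and -3.70, with overlap at db/m replicate 3 and 1 labelled db/db array not well above background. Its difference was 0.64 ± 0.24 (unadjusted p = 0.0343 in limma). The p of Kcnj4 was 0.103 and 0.0931 without db/m replicates 1 and 2, and 0.108 and 0.0648 without db/db replicates 1 and 3. Kcnj4, too, was tested through labelled db/m alone. Its difference was 0.26 with normexp (unadjusted p = 0.117 in limma) and 0.45 with quantile normalization (unadjusted p = 0.171 in limma), and its p was 0.0790 with slide as a block.

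Kcnj8, the pore of the vascular ATP-sensitive channel, read 0.71, -0.36 and 0.67 against 0.14, -0.01 and -0.24. It differed by 0.38 ± 0.30 (unadjusted p = 0.248 in limma), and by 0.73 without db/m replicate 2 (unadjusted p = 0.00293 in limma). Its sulfonylurea receptor partner Abcc9 was at -0.11 ± 0.21. Kcnj2, Kcnj5 and Kcnj12 were at 0.02, 0.40 and -0.07 and did not pass.

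Of the 14 two-pore genes, 6 were tested and 1 was higher (6.9% of all tested probes), with none lower (10.8% of all). Kcnk16, known from pancreatic islets, read -2.94, -2.62 and -2.74 in labelled db/m and -3.47, -3.61 and -3.00 in labelled db/db, where 1 array was not well above background, so it too was tested through labelled db/m alone. The groups did not overlap, with a difference of 0.60 ± 0.19 (1.51-fold, unadjusted p = 0.0157 in limma). Its p was 0.0514 without db/db replicate 1 and 0.0542 without replicate 2, and on slide 1 alone the difference was 0.06. With normexp it was 0.25 (unadjusted p = 0.0886 in limma). Another Kcnk16 probe, not matched to RefSeq, was well above background on no array and was not tested. Its mean log2 signal was -6.25. Kcnk5, a leak channel of the proximal tubule that responds to pH, was at -0.03 ± 0.31. Kcnk1, a weak leak channel of several nephron segments, was at 0.23 ± 0.26, and Kcnk3, an acid-sensitive channel, at 0.06 ± 0.40. The 2 tested probes of Kcnk6 gave -0.02 and, from a dim probe well above background on 1 of 3 labelled db/db arrays, 0.83 (unadjusted p = 0.0886 in limma), neither of which passed.

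**Figure D3:**
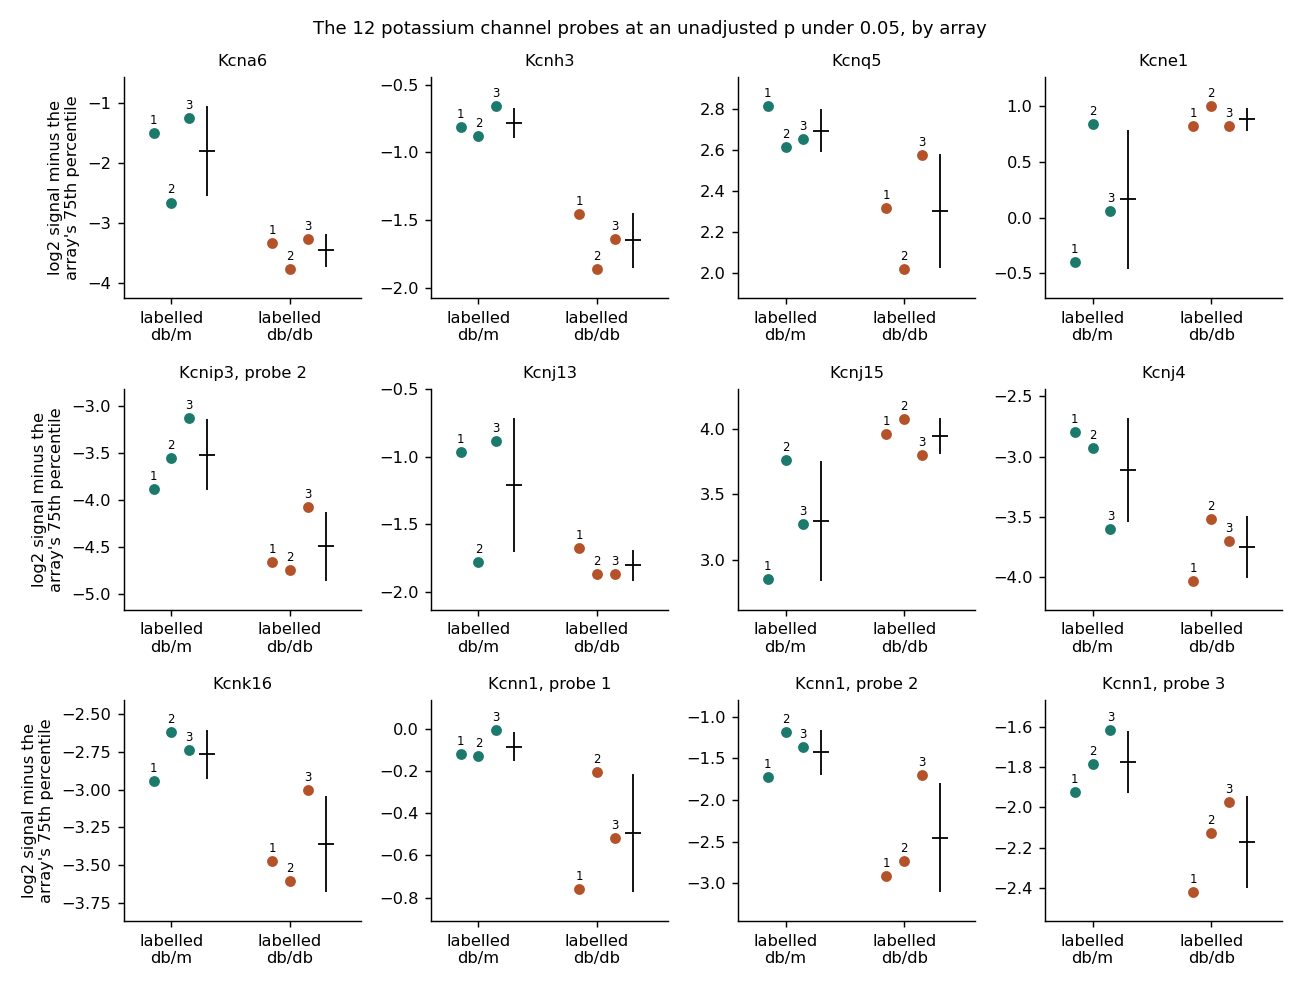
Log2 signal minus the 75th percentile of the array (vertical axis) for the 12 probes at an unadjusted p under 0.05, points numbered by replicate, with the mean and SD (n = 3) at the right of each group. The groups stand apart for Kcna6 and Kcnh3, while db/m replicate 2 lies beside the labelled db/db arrays for Kcne1, Kcnj13 and Kcnj15.

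The calcium-activated channels and their relatives had 11 of 11 tested probes above 0, where 46.5% of all tested probes were. At an unadjusted p under 0.05, 3 were higher, all of Kcnn1 (6.9% of all tested probes were higher). Probes are not separate genes, and of these 11 probes 7 belong to Kcnn1, Kcnn2 and Kcnt1. The tested Kcnn2 probes are assigned to different transcripts and correlated at -0.32 over the arrays. The count above 0 was 8 with quantile normalization (47.6% of all tested probes) and 8 with median centring (25.7% of all). It was 9 with normexp (43.55% of all) and 7 with slide as a block (45.3% of all). Of these 12 genes, 7 were tested, and the median of the 11 probes was 0.41. Kcnn1 encodes a small-conductance channel opened by calcium through calmodulin. Its probe 1 read -0.12, -0.13 and 0.00 in labelled db/m and -0.76, -0.20 and -0.52 in labelled db/db, a difference of 0.41 ± 0.16 (unadjusted p = 0.0373 in limma). Probe 3 read -1.93, -1.79 and -1.62 against -2.42, -2.13 and -1.97, a difference of 0.40 ± 0.15 (unadjusted p = 0.0377 in limma). Both of these probes kept the groups apart, but with median centring they differed by 0.22 and 0.21 (unadjusted p = 0.321 and 0.305 in limma).

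Probe 2 of Kcnn1 was the second member past the screen. It read -1.72, -1.19 and -1.37 against -2.92, -2.73 and -1.70, a difference of 1.02 ± 0.33 (2.03-fold, unadjusted p = 0.0177 in limma). Its groups overlapped, because db/db replicate 3 read slightly above db/m replicate 1. Those are the arrays of slide 1, and on them probe 2 differed by -0.02, probe 3 by 0.05 and probe 1 by 0.40. Without db/m replicate 2, db/db replicate 1 or db/db replicate 2, the p of probe 2 was 0.0529, 0.0569 and 0.0630. Probe 1 was above 0.05 without any array but db/db replicate 2, at 0.0665, 0.0594 and 0.107 without db/m replicates 1, 2 and 3, and 0.116 and 0.0803 without db/db replicates 1 and 3. Probe 3 was at 0.0695 and 0.127 without db/m replicates 2 and 3, and at 0.120 and 0.0680 without db/db replicates 1 and 2. The 3 probes are separate readings of 1 gene and not replicates. Probe 1 was not matched to RefSeq. A further Kcnn1 probe, matched to it, was well above background on no array and was not tested, with a mean log2 signal of -6.12.

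Kcnma1, the large-conductance calcium-activated channel of flow-dependent potassium secretion, read -1.02, -0.46 and -0.74 against -1.29, -1.35 and -0.55. It differed by 0.32 ± 0.25 (unadjusted p = 0.248 in limma), by 0.58 without db/db replicate 3 (unadjusted p = 0.0223 in limma) and by -0.48 on slide 1. These Kcnma1 values come from 1 probe that was not matched to RefSeq. The other Kcnma1 probes, all matched to it, were not tested, with mean log2 signals of -6.34, -4.32, -5.07, -3.99 and -4.69. They were well above background on 0, 1, 0, 2 and 0 arrays. Kcnmb2, a beta subunit of the Kcnma1 channel, was dim and at 0.08 ± 0.23. Kcnn3 was at 0.41 ± 0.24, and Kcnn4, the intermediate-conductance channel of blood cells and fibroblasts, at 0.13 ± 0.22.

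Kcna6, Kcnh3 and Kcnn1, taken from the 8 genes higher in labelled db/m, are best known from neurons. The summed signals of nerve and of myeloid markers were higher in labelled db/m. Of 6 nerve markers, 5 were well above background on all 6 arrays and Syt1 was on none. Their summed signal was 14.8 to 20.9 in labelled db/m and 11.8 to 12.2 in labelled db/db. Of the 5 tested, 1, Snap25, was higher at an unadjusted p under 0.05 (6.9% of all tested probes were), while 2 of the 5 were below 0. Snap25, at 4.002, 3.44 and 3.55 against 3.06, 2.80 and 3.05 (log2), made up most of the sum on every array, and Tubb3 and Stmn2 were at -0.02 and -0.03. All 5 myeloid markers were well above background on all 6 arrays, with summed signals of 31.6 to 53.3 and 22.9 to 28.2. Of these, 3 were higher at an unadjusted p under 0.05, where 6.9% of all tested probes were. The part of either cell type in the channel values was not tested.

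A second pattern, chosen after its values were seen, ran across arrays, with a wide spread within labelled db/m. Kcnt1, a sodium-activated channel, read 1.80, -1.19 and 1.07 in labelled db/m and 0.14, -0.90 and 0.10 in labelled db/db. It had the highest SE of the tested members, with a difference of 0.78 ± 0.75 (unadjusted p = 0.332 in limma), and its second probe followed it at 0.63 ± 0.72. Kcnn2, a small-conductance channel, read -0.05, -2.02 and -0.89 against -1.44, -1.97 and -1.50 on its brighter probe, and Kcns3 read -0.70, -2.07 and -1.21 against -1.36, -1.91 and -1.65. Kcnt1, Kcnn2 and Kcns3 put the 6 arrays in the same order, from db/m replicate 1 at the top to db/m replicate 2 at the bottom. Without db/m replicate 2 their differences were 1.65, 1.16 and 0.68 (unadjusted p = 0.00508, 0.00750 and 0.0244 in limma). The other probe of Kcnn2 did not share the pattern, with values from -2.38 to -2.00. Kcnj12, an inward rectifier of muscle, ran the other way, at -1.87, -0.16 and -0.82 against -1.41, -0.56 and -0.67, and 2 probes of it did so.

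Marker lists moved over the same arrays. The summed signal of the 5 inner medulla and urothelium markers was 24.5, 2.07 and 16.9 in labelled db/m and 5.82, 1.35 and 3.92 in labelled db/db. Of those 5 markers, 2 were well above background on all 6 arrays and none was absent from every array. Those 2 were Aqp4, at 1.48 ± 0.49, and Krt5, at 1.53 ± 0.56. Both were higher in labelled db/m at an unadjusted p under 0.05 in limma (6.9% of all tested probes were). Principal cell markers summed to 99.7, 48.9 and 99.9 against 56.3, 55.5 and 47.2, and podocyte markers to 12.4, 30.6 and 19.3 against 17.2, 26.5 and 21.4. The principal cell sums followed Fxyd4, at 5.68, 3.77 and 5.90 against 4.07, 3.62 and 3.70, and Aqp2, whereas Aqp3 was at -0.13 ± 0.13, Scnn1g at -0.30 ± 0.14 and Hsd11b2 lower, so 3 of the 6 markers were above 0. Db/m replicates 1 and 3 were highest for the medulla list, and db/m replicate 1 was low and replicate 2 high for podocytes. The part of the piece of kidney taken in Kcnt1, Kcnn2, Kcns3 and Kcnj12 was not tested.

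**Figure D4:**
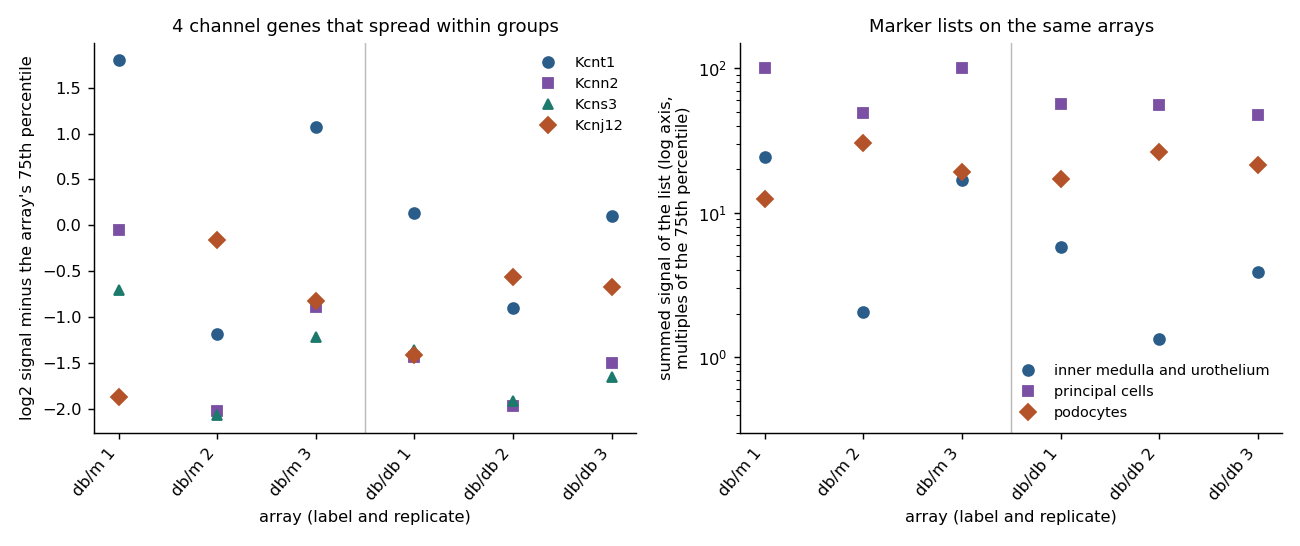
Left, log2 signal minus the 75th percentile of the array for the brightest probes of Kcnt1, Kcnn2, Kcns3 and Kcnj12 on each array; right, summed signal of 3 marker lists on a log axis. Kcnt1 and the inner medulla and urothelium list are both highest on db/m replicates 1 and 3, at 1.80 and 1.07 and at 24.5 and 16.9.

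Genes that work with potassium channels were counted from 3 lists. Of 9 further subunits, 5 were tested and 1 was higher at an unadjusted p under 0.05 (6.9% of all tested probes), Dpp10, a partner of transient channels, at 1.52 ± 0.57. Of 13 pump genes, 11 were tested, with Fxyd4, a collecting duct regulator of the sodium-potassium pump, higher at 1.32 ± 0.54, and Atp4a, the catalytic subunit of the gastric hydrogen-potassium pump, lower at -0.49 ± 0.16 (6.9% and 10.8% of all tested probes were higher and lower). Atp1b1, the main beta subunit of the sodium-potassium pump in the tubule, was at 0.11. Of 13 regulators of renal potassium handling, 12 were tested, none was higher and 4 were lower (6.9% and 10.8% of all tested probes), namely the kinase Wnk1 (-0.44 ± 0.14), the ubiquitin ligase scaffold Cul3 (-0.39 ± 0.13), the aldosterone-induced kinase Sgk1 (-0.48 ± 0.19) and Hsd11b2 (-0.41 ± 0.17), which inactivates glucocorticoids in aldosterone target cells. No gene of these lists reached an adjusted p under 0.05 in limma.

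**Figure D5:**
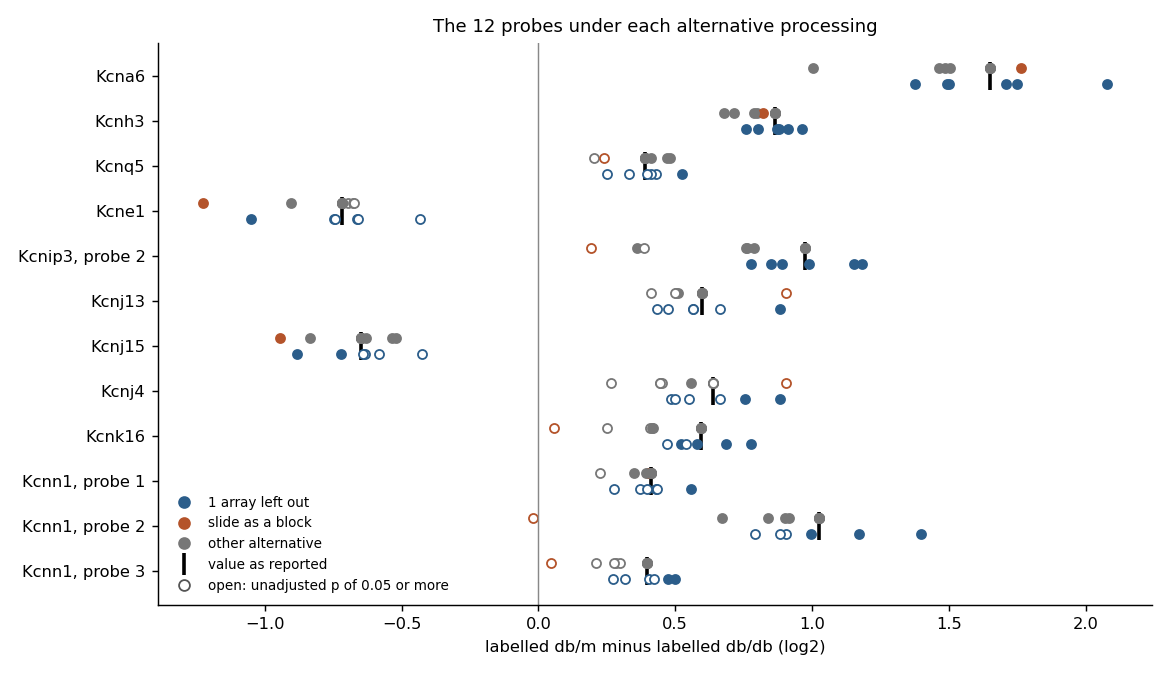
Difference (labelled db/m minus labelled db/db, log2) of the 12 probes as reported (bar) and under each alternative, with 1 array left out in blue, slide as a block in orange and the rest in grey, open where the unadjusted p was 0.05 or more. Kcna6 and Kcnh3 have closed points throughout, and probe 2 of Kcnn1 falls to -0.02 with slide as a block.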

How the data were processed

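Total RNA of the renal cortex was labelled with Cy3 and hybridised to one-colour Agilent arrays. The authors deposited Agilent Feature Extraction 10.7.1.1 output, and the processed intensity of each spot, already background-subtracted, was used with the scanner's flags. The authors' deposited series table holds log2 values that tracked the log2 intensity of each array (r of 0.9996 or more), with nearly the same median in every column, and served as an alternative. Its centring step is not given in the sources used here. Control spots and 135 probes with outlier flags were left out, spots of a probe were averaged, and the 75th percentile of the log2 intensity over the 56470 remaining probes was subtracted per array. Probes flagged as well above background throughout at least 1 group of 3 arrays were fitted in limma 3.58.1 (R 4.3.3) with empirical Bayes variances, after a check on simulated data, and p-values were adjusted over all 29889 tested probes by Benjamini-Hochberg. Group means carry SD, differences SE. Where a gene has several probes, the brightest tested one stands for it.

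The members and gene lists were chosen with earlier results of these data known. Named were members at an unadjusted p under 0.05, the 2 brightest genes of each family, genes with a known kidney role and members seen in 1 group alone. Members were matched to RefSeq symbols through accessions for 144 probes, with no different symbol. In all, 17 alternatives were run. The number of arrays limits the precision. Single values of some genes are not reported here.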

Additional observations from a re-analysis of the deposited data

How the results depend on the processing

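Of the 12 probes at an unadjusted p under 0.05, Kcna6 and Kcnh3 kept direction and side of that threshold in every alternative giving a value. Kcnip3 probe 2 kept both whenever 1 array was left out. It kept its direction but lost its call with slide as a block (0.19). The same held with dim arrays set to the lowest signal called well above background (0.39). Probe 2 of Kcnn1 changed direction with slide as a block (-0.0191). The 10 higher members became 4 with median centring (3.02% of all tested probes) and 4 with the methods' t-test (4.28% of all). With slide as a block they became 4 (4.55% of all). They became 6 where all 6 arrays had to be above background (1639 of all 27855 such probes). With 1 array left out they became 3 to 15, where 1086 to 3350 of all 29889 tested probes were higher. The 2 lower members became 5 with median centring (19.3% of all) and 0 with the methods' t-test (11.2% of all). They became 8 with slide as a block (5.16% of all). With 1 array left out they became 0 to 3, where 1214 to 4094 of all tested probes were lower. The 2 members past the screen became 1 with quantile normalization, median centring, normexp, the methods' t-test, the series table or the stricter filter, 5 with no filter on dim probes, and 1 to 5 with 1 array left out. With slide as a block 3 members passed the screen, Kcna6 higher and Kcne1 and Kcnk3 lower. The share of all probes past the screen under the alternatives is not reported here. The count at an adjusted p under 0.05 was 0 throughout, except 0 to 1 with 1 array left out. The median difference of 0.13 became -0.0586 with median centring, -0.0235 with no filter and -0.0882 with slide as a block, and lay between 0.10 and 0.25 with 1 array left out. Of all calls at an unadjusted p under 0.05, 39.0% were higher, against 13.5% with median centring and 51.1% with no filter.

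Replicate numbers are shared by the groups, but deviations of same-numbered arrays correlated at 0.35, 0.15 and 0.05, and db/db replicate 3 correlated best with db/m replicate 2, so the numbers were not taken to pair the samples. With a replicate block, 10 members were higher and 2 lower, where 2496 and 4064 of all 29889 tested probes were. In that fit 2 members passed the screen and the median was 0.13. However, Kcnj4 lost its call (unadjusted p = 0.0540 in limma) and Kcnv1 gained one (0.63, unadjusted p = 0.0342 in limma). Of the 29 named probes that did not pass, 19 changed sign under some alternative and 19 reached an unadjusted p under 0.05 under some alternative. The cause of these changes was not tested.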
